A study of Homo sapiens with 6 samples.

Results

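Lysosomal enzymes and membrane proteins were followed as a set of 41 genes in HepaRG cells, an established human line of liver origin described in the labels as hepatic stem cells and as cancer-derived. The set was chosen by gene symbol from a list of lysosomal hydrolases, their helper proteins, membrane proteins and the transcription factor TFEB. All 41 had a row in the deposited table of 16659 genes, once the second copies of pseudoautosomal genes were left out, and all 41 passed the filter on low values. RNA was sequenced from 3 libraries of cells labelled as a functional knockout of PXR and from 3 libraries of wild-type cells, which the labels name as the control. PXR, encoded by NR1I2, is a nuclear receptor that senses drugs and steroids. Neither group had been treated with a drug. How the knockout was made, and whether it is 1 clone, is not given in the sources used here. Separate cultures are not stated either, and the p-values therefore reflect only how far these 6 libraries spread, which could be technical.

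The lysosome is the acid compartment in which cells digest proteins, sugars and lipids taken up from outside or delivered by autophagy. Most of its soluble enzymes are tagged with mannose 6-phosphate in the Golgi and carried there by receptors, and a proton pump, the V-ATPase, keeps it acid. In human cells TFEB and its relatives TFE3, MITF and TFEC, together called the MiT/TFE factors, bind a palindromic promoter element called CLEAR that is common in lysosomal genes. In liver, lysosomes also break down lipid droplets and handle the cholesterol of internalised lipoproteins.

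Values are scaled CPM, that is, estimated read counts divided by a library size that was adjusted by a factor per library. Estimated depth ran from 28154914 to 33393110 reads in knockout libraries and from 11359209 to 20945994 reads in wild-type libraries, so all knockout libraries were deeper. The member with the fewest reads in any library was CTSS, with an estimated 43. NR1I2 itself measured 13.1, 13.4 and 14.3 scaled CPM in knockout libraries, against 8.24, 7.04 and 7.60 in wild-type libraries. Such a gene total cannot check a functional knockout. Levels of cell type markers also differed. All 9 hepatocyte markers were higher in the knockout, with a summed level of 45291 to 46484 scaled CPM in knockout libraries, against 2284 to 2354 in wild-type libraries. Of 7 bile duct markers, 4 had a row, and their sum was 373 to 399 in knockout and 489 to 515 in wild-type libraries. Of these, 2 were higher (KRT19 and SOX9) and 2 lower (SPP1 and KRT7) in the knockout. KRT19 averaged 334 in the knockout and 111 in wild type, and SPP1 43.6 in the knockout and 382 in wild type. Summed stellate and mesenchymal markers (7 of 8 with a row) were at 405 to 421 in knockout and 107 to 111 in wild-type libraries. Here 4 were higher and 3 lower. DCN averaged 335 in the knockout and 63.1 in wild type, and DES 1.18 in the knockout and 18.5 in wild type. Endothelial markers (2 of 5 with a row) came to 215 to 222 in knockout and 54.8 to 55.1 in wild-type libraries. KDR, which made up nearly all of this sum, was higher in the knockout, and PECAM1 was lower. Of 10 macrophage and leukocyte markers 3 had a row, with a sum of 18.5 to 19.3 in knockout and 12.0 to 12.6 in wild-type libraries; PTPRC, CSF1R and CD163 were among those with none. The part of these differences in the results was not tested. In bulk RNA, fewer cells of a type and less RNA per cell cannot be told apart.

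The comparison sets lysosomal gene expression in untreated knockout cells beside that in the wild-type control. Of the 41 genes, 21 rose and 15 fell in the knockout, and 5 did not pass the test (limma with Benjamini-Hochberg adjustment over all 16219 tested genes, threshold 0.05). That is 87.8% of the set, against a background of 79.9% of all tested genes, of which 40.3% were higher and 39.6% lower in the knockout. The median log2 fold change was 0.09 for the set and 0.01 for all tested genes. Changes of at least 2-fold were seen for 6 members that rose (CTSS, CTSO, TPP1, IDUA, FUCA1 and NAGLU) and 1 that fell (PPT1), or 17.1% of the set, against 22.7% of all tested genes. Knockout and wild-type libraries did not overlap at 36 members (87.8%), against 80.8% of all tested genes. The split into rises and falls depends on the scaling between libraries. With every library set to the same sum it became 14 higher and 20 lower, and the median of all genes moved to -0.12, while quantile normalization gave 16 higher and 20 lower. The members whose call or direction turned are named with their values further on.

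**Figure D1:**
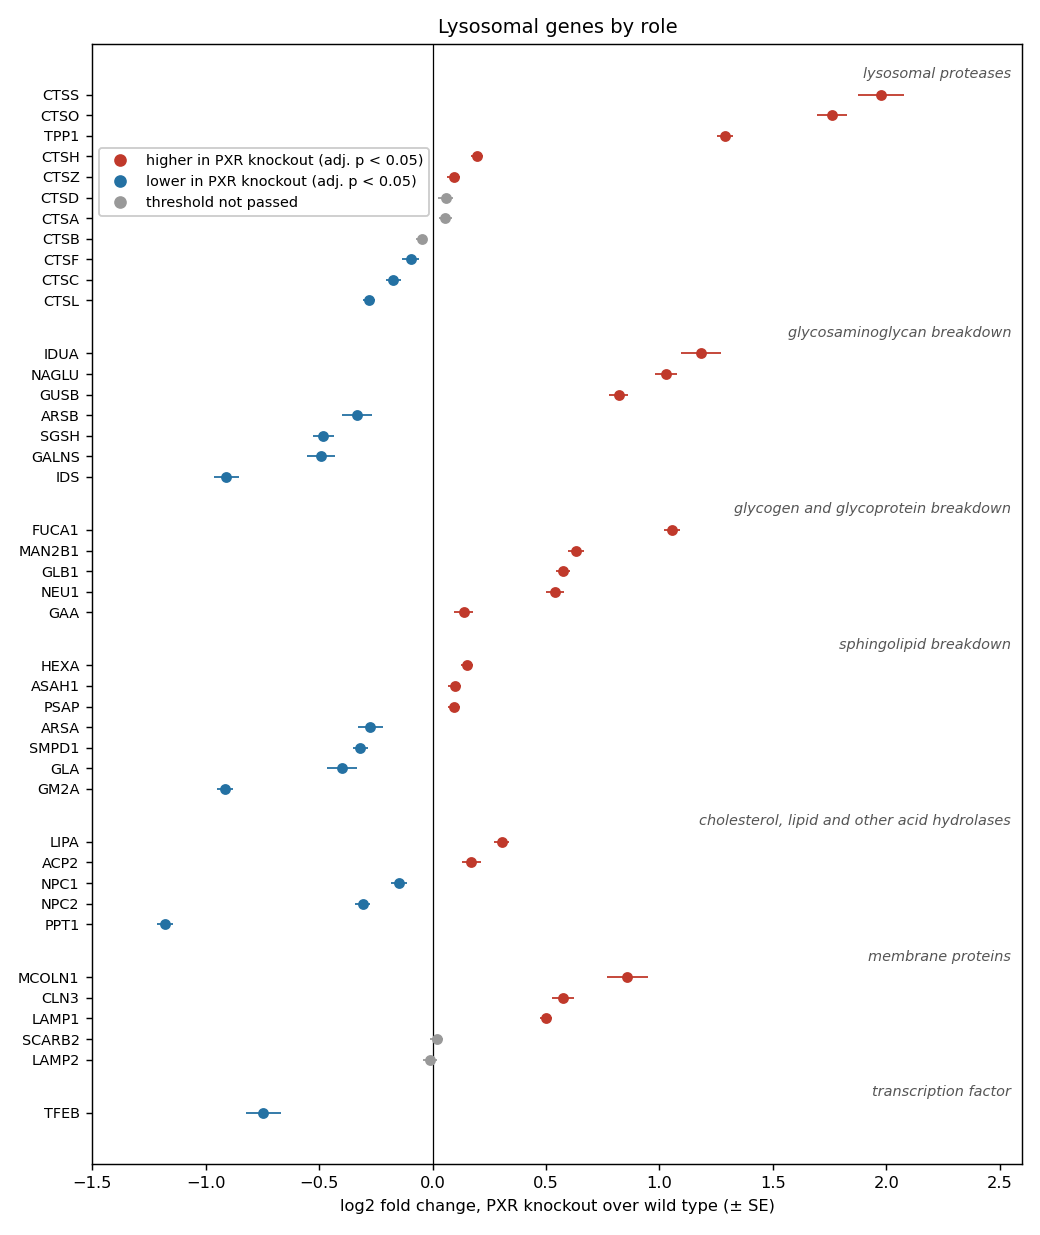
Log2 fold change of each of the 41 genes (x axis, knockout over wild type, with its SE) by role in the lysosome (rows). Points right of 0 are higher in the knockout; the changes run from -1.18 for PPT1 to 1.98 for CTSS, and all 5 enzymes of glycogen and glycoprotein breakdown lie right of 0.

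TFEB, the transcription factor of the set, was low and fell. It measured 9.67, 10.2 and 10.5 scaled CPM in knockout libraries 1 to 3, against 18.4, 17.7 and 16.01 in wild-type libraries 1 to 3. Every knockout library lay below every wild-type library. The means were 10.1 ± 0.443 in the knockout and 17.4 ± 1.22 in wild type (SD, n = 3 each). The log2 fold change was -0.75 (SE 0.075, limma adjusted p = 4.4e-07). Its relatives did not share 1 direction. TFE3 rose and stood at 71.1, 75.6 and 78.9 scaled CPM in knockout libraries, against 42.6, 42.1 and 44.5 in wild-type libraries (log2 fold change 0.80, limma adjusted p = 4.3e-10). For MITF the levels were 70.8, 67.6 and 73.2 in knockout libraries and 59.7, 60.2 and 63.5 in wild-type libraries, a smaller rise of 0.20 on the log2 scale. The least expressed relative, TFEC, fell, with 6.78, 6.19 and 5.26 scaled CPM in knockout libraries and 9.23, 10.3 and 9.49 in wild-type libraries. Per kb of annotated exon, TFE3 had the highest level of the 4 factors in both groups, at 17.6 scaled CPM per kb in the knockout and 10.1 in wild type, while TFEB had 1.80 in the knockout and 3.08 in wild type.

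**Figure D2:**
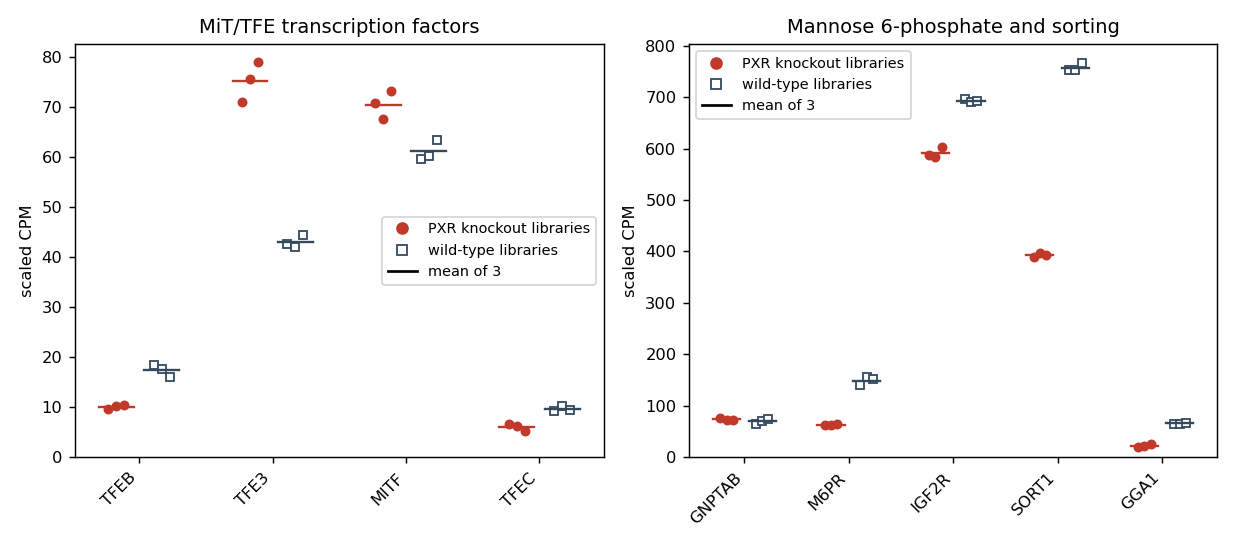
Scaled CPM (y axes, from 0) of the 4 MiT/TFE factors (left) and of 5 genes of mannose 6-phosphate tagging and sorting (right) in each knockout library (filled circles) and each wild-type library (open squares), with the mean of 3 as a line. TFE3 and MITF are higher and TFEB and TFEC lower in the knockout; M6PR, IGF2R, SORT1 and GGA1 are lower, and GNPTAB overlaps between groups.

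Promoters were searched for the letters that MiT/TFE factors are known to bind, to show what the members share in sequence. RefSeq promoters of build GRCh38.p14, from 250 bases before to 50 after each start, matched 31 of the 41 genes, all but CTSS, CTSO, CTSB, NAGLU, SGSH, HEXA, ARSA, ASAH1, PSAP and LAMP2. The palindrome CACGTG was present in 10 of the 31 (32.3%), against 8.77% of all 27305 genes of the promoter table and 10.9% of its protein-coding genes. The longer palindrome TCACGTGA, the centre of the CLEAR element, which contains the shorter one, was present in 6 (19.4%), against 1.18% of all genes and 1.65% of protein-coding genes. Members had 40 starts for 31 genes and all genes 35116 starts for 27305 genes, and a gene was counted where any of its starts held the letters. The 6 genes are LAMP1, MCOLN1, CLN3, GAA, CTSA and GALNS. A match is a description of these letters and not a binding site. CLEAR was searched because it is already known to be common in lysosomal genes, so the higher share among members is not an independent result.

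The promoter of LAMP1, the member with the most copies, lies at chr13:113296989-113297288 on the plus strand. It holds 6 copies of CACGTG, of which the last 2, next to the start, are also TCACGTGA. Matches are in capitals, and the sequence is given in full because its repeats cannot be seen in a count.
LAMP1: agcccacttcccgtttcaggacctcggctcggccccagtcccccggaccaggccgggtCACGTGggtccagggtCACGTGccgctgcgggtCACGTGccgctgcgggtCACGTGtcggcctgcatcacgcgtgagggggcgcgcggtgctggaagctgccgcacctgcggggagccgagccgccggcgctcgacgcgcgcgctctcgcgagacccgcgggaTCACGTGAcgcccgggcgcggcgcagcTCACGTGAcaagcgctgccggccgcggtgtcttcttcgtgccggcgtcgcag

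The other 5 genes are shown as stretches of 80 bases around their copies of TCACGTGA, with all matches in capitals. They are at chr19:7522563-7522642 (plus strand) for MCOLN1, chr17:80101503-80101582 (plus) for GAA, chr20:45891263-45891342 (plus) for CTSA, chr16:28492043-28492122 (minus) for CLN3 and chr16:88857089-88857168 (minus) for GALNS. In MCOLN1 and GAA the longer palindrome stands in 2 copies, while CLN3 and CTSA have 1 copy beside a shorter CACGTG, and GALNS has its shorter copy nearer to the start, outside the stretch shown.
MCOLN1: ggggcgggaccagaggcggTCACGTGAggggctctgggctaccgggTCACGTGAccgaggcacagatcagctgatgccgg
GAA: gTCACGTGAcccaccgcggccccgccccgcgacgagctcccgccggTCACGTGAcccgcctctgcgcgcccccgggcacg
CTSA: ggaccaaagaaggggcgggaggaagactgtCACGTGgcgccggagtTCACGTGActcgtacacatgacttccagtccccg
CLN3: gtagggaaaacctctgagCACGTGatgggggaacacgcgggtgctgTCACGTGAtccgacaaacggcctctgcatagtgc
GALNS: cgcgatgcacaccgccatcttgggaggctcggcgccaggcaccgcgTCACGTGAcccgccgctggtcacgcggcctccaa

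Expression of these 6 genes did not move in 1 direction. LAMP1, MCOLN1, CLN3 and GAA were higher in the knockout, GALNS was lower, and CTSA did not pass the test. GAA lost its call when libraries were scaled to equal sums (adjusted p = 0.98) and without knockout replicate 3 (0.054). Neither palindrome was found in the promoter of PPT1, the member that fell most, at chr1:40097203-40097502 on the minus strand; it is shown for comparison.
PPT1: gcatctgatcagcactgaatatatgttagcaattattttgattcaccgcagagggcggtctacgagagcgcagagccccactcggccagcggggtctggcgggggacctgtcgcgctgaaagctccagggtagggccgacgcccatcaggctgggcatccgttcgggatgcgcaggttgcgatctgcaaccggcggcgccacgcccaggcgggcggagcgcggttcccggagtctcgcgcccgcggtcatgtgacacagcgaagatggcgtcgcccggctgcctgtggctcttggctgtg

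Among the membrane proteins, 3 of 5 rose and none fell. With equal sums or quantile normalization it was 3 higher and 2 lower. For the counts by role or list here and below, the background is 40.3% of all tested genes higher and 39.6% lower. LAMP1 (chromosome 13, 113297241 to 113323672 in GRCh38), a heavily glycosylated protein that lines the lysosomal membrane, had 316, 321 and 314 scaled CPM in knockout libraries, against 228, 219.6 and 224 in wild-type libraries. All knockout libraries lay above all wild-type libraries, with a log2 fold change of 0.50 (SE 0.026, limma adjusted p = 2.5e-10). LAMP2, its partner in the membrane and, in 1 splice form, the receptor of chaperone-mediated autophagy, stood at 205, 196 and 197 in knockout and 195, 208 and 199.6 in wild-type libraries. The groups overlapped, and the 95% interval of the LAMP2 log2 difference was -0.08 to 0.05. SCARB2, the membrane protein that carries glucocerebrosidase to the lysosome, likewise overlapped, with 370.0, 354 and 372 scaled CPM in knockout libraries and 348, 367 and 368 in wild-type libraries (95% interval of the log2 difference -0.05 to 0.08). With equal sums LAMP2 and SCARB2 were lower in the knockout, by log2 fold changes of -0.15 and -0.12. MCOLN1, the calcium channel of the lysosome, rose, with 13.1, 11.7 and 12.9 scaled CPM in knockout libraries and 6.76, 6.08 and 7.38 in wild-type libraries (log2 fold change 0.86, SE 0.092). CLN3, a membrane protein mutated in juvenile Batten disease, measured 61.05, 59.8 and 63.4 in knockout and 43.3, 38.2 and 41.9 in wild-type libraries, a rise of 0.57 on the log2 scale. For MCOLN1 and CLN3 the groups were apart, though each shares exon bases on its strand with another annotated gene (PNPLA6 in the case of MCOLN1), and reads there may be split between them.

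The proteases held the 3 largest rises of the set. Of 11, 5 rose (CTSS, CTSO, TPP1, CTSH and CTSZ), 3 fell (CTSL, CTSC and CTSF) and 3 did not pass the test (CTSD, CTSA and CTSB). With equal sums it was 3 higher and 6 lower. CTSS (chromosome 1, 150730196 to 150765957), a cysteine protease best known from antigen-presenting cells, showed the largest rise of the whole set. Its level was 18.5, 18.3 and 15.8 scaled CPM in knockout libraries 1 to 3, against 3.54, 4.60 and 4.14 in wild-type libraries 1 to 3. The lowest knockout value was several times the highest wild-type value. The means were 17.5 ± 1.47 in the knockout and 4.09 ± 0.527 in wild type (SD, n = 3 each). On the log2 scale CTSS rose by 1.98 (SE 0.10, limma adjusted p = 2.8e-10). CTSS is abundant in macrophages. Of the 10 macrophage and leukocyte markers 7 had no row, and of the others ITGAM averaged 14.3 scaled CPM in the knockout and 8.10 in wild type, LYZ 2.93 in the knockout and 2.21 in wild type, and CD14 1.55 in the knockout and 2.03 in wild type. The part of such cells in the CTSS level was not tested. CTSO, a widely expressed cysteine cathepsin, came next, with 37.3, 35.1 and 37.2 scaled CPM in knockout libraries and 10.1, 9.86 and 11.4 in wild-type libraries (log2 fold change 1.76, SE 0.066, limma adjusted p = 6.7e-12).

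TPP1, a serine peptidase that removes tripeptides and is mutated in late-infantile Batten disease, had 91.1, 90.3 and 93.1 scaled CPM in knockout libraries, against 36.9, 37.5 and 37.1 in wild-type libraries. Its libraries agreed closely within each group and were far apart between groups, a log2 fold change of 1.29 (SE 0.034, limma adjusted p = 1.7e-13). CTSH, an aminopeptidase, rose by less, with 143, 146 and 147 in knockout and 126, 125 and 128 in wild-type libraries, and CTSZ, a carboxypeptidase, had 151, 149 and 154 in knockout and 139, 143 and 144 in wild-type libraries. With equal sums the calls of CTSH and CTSZ were lost (adjusted p = 0.073 and 0.16), and the CTSZ log2 fold change was -0.0441.

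The broad endopeptidase CTSL fell. It measured 215, 218 and 218 scaled CPM in knockout libraries and 258, 264 and 269 in wild-type libraries, a log2 fold change of -0.28 (SE 0.026, limma adjusted p = 1.9e-07), and no library of 1 group reached the other. CTSC is the dipeptidyl peptidase that activates serine proteases of immune cells. It was at 149.7, 151 and 152 in knockout and 162, 176 and 172 in wild-type libraries (log2 fold change -0.17). CTSF, another cysteine cathepsin, had 59.4, 62.2 and 64.3 in knockout and 65.7, 65.3 and 67.6 in wild-type libraries; its call was lost without knockout replicate 1 or 2 or wild-type replicate 3 (adjusted p = 0.14, 0.063 and 0.11).

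The other 3 proteases, CTSD, CTSB and CTSA, did not pass the test. CTSD, the aspartic protease of the lysosome, was the member with the highest level, with 1477, 1571 and 1609 scaled CPM in knockout libraries and 1502, 1448 and 1524 in wild-type libraries. The groups overlapped and the 95% interval of the log2 difference was -0.02 to 0.13; CTSD passed the test as higher without knockout replicate 1 (log2 fold change 0.09, adjusted p = 0.02) and as lower with equal sums (-0.08) and quantile normalization (-0.32). CTSB, a cysteine protease with both endopeptidase and exopeptidase activity, had 422, 434 and 436 in knockout and 451, 440.0 and 446 in wild-type libraries (95% interval -0.10 to 0.0054). CTSA, a carboxypeptidase that also protects GLB1 and NEU1 in a complex, had 227, 239.5 and 240.1 in knockout and 224, 228 and 228 in wild-type libraries (95% interval -0.0053 to 0.12), and it too passed as higher without knockout replicate 1 (0.08, adjusted p = 0.016). With equal sums CTSB and CTSA were lower, by log2 fold changes of -0.19 and -0.08.

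Natural protease inhibitors of the cystatin and serpin families were described beside the proteases. Whether each acts on a protease of the set was not tested. Of 13 cystatins and serpins listed, 5 had a row; 3 rose, 1 fell and 1 did not pass. CST3, the secreted cystatin C, had 251, 269.6 and 261 scaled CPM in knockout libraries and 150.2, 147 and 152 in wild-type libraries (log2 fold change 0.80). SERPINB1 rose by 0.63 and SERPINB6, also an intracellular serpin, fell by 0.45 on the log2 scale.

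**Figure D3:**
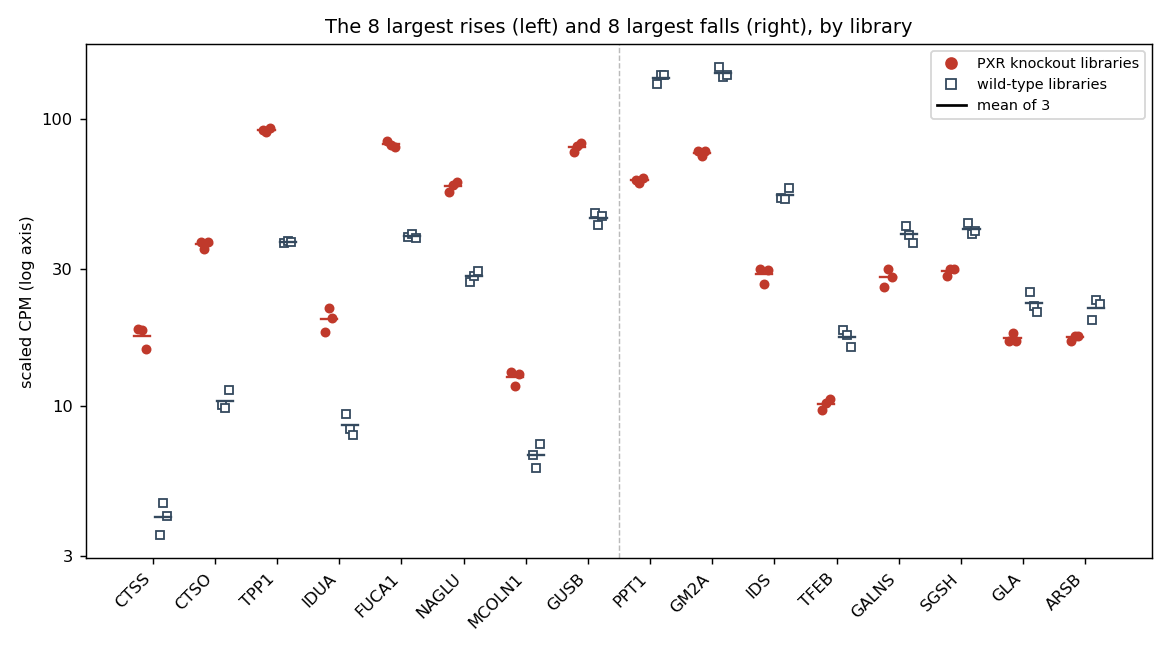
Scaled CPM (log axis) in each knockout library (filled circles) and wild-type library (open squares) of the 8 members with the largest rises, left of the dashed line, and the 8 with the largest falls, right of it; lines are means of 3. The 16 genes were picked by their change in these same libraries, so the lack of overlap between groups at each follows from the choice. Of all tested genes, 80.8% did not overlap. CTSS has 15.8 to 18.5 in the knockout, against 3.54 to 4.60 in wild type.

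Enzymes of glycosaminoglycan breakdown divided into 3 that rose and 4 that fell, also with equal sums and with quantile normalization. The groups did not overlap at any of the 7, and they did not overlap at 80.8% of all tested genes. The exo-enzymes IDUA, NAGLU and GUSB, which remove single sugars from heparan sulfate or dermatan sulfate chains, were the ones that rose. IDUA, the alpha-L-iduronidase, had 18.1, 21.9 and 20.2 scaled CPM in knockout libraries, against 9.40, 8.33 and 7.92 in wild-type libraries (log2 fold change 1.18, SE 0.087, limma adjusted p = 1.4e-08). IDUA shares exon bases with SLC26A1 on the opposite strand, and the counting setting is not stated. NAGLU, the alpha-N-acetylglucosaminidase, stood at 55.4, 58.9 and 60.4 in knockout and 26.96, 28.4 and 29.5 in wild-type libraries (log2 fold change 1.03). GUSB, the beta-glucuronidase, had 76.9, 80.7 and 82.2 in knockout and 46.8, 42.7 and 45.7 in wild-type libraries (log2 fold change 0.82); it lies on chromosome 7, where the median log2 fold change of all tested genes was 0.43.

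The 4 that fell, IDS, GALNS, SGSH and ARSB, are all sulfatases. IDS (chromosome X, 149476990 to 149521096), the iduronate sulfatase, had 30.04, 26.5 and 29.7 scaled CPM in knockout libraries and 53.1, 52.5 and 57.5 in wild-type libraries, a log2 fold change of -0.91 (SE 0.054, limma adjusted p = 1.3e-09). SGSH, the heparan sulfamidase, had 28.4, 29.9 and 30.01 in knockout and 43.4, 39.8 and 40.7 in wild-type libraries (log2 fold change -0.48). GALNS, which removes sulfate from keratan and chondroitin sulfate, measured 25.9, 30.1 and 28.04 in knockout and 42.4, 39.4 and 36.96 in wild-type libraries (log2 fold change -0.49). ARSB, the sulfatase of dermatan sulfate, had 16.9, 17.5 and 17.6 in knockout and 19.95, 23.3 and 22.7 in wild-type libraries (log2 fold change -0.33). A further sulfatase of the set, ARSA, acts on sulfatide and fell too, with 26.2, 28.03 and 29.04 in knockout and 35.4, 31.8 and 33.7 in wild-type libraries (log2 fold change -0.27); it lies on chromosome 22, where the median of all tested genes was -0.77. The part of these chromosome-wide differences in the values of GUSB and ARSA was not tested. Sulfatases outside the set did not all fall. ARSK rose by 0.88 while ARSG fell by 1.23 on the log2 scale. SUMF1 and SUMF2 encode the enzyme that activates all sulfatases and its paralogue; SUMF1 had a log2 fold change of 0.21 and SUMF2 of 1.54, and SUMF2 lies on chromosome 7. IDS shares exon bases with other annotated genes on its strand and has a pseudogene copy nearby, so its level is uncertain to that extent.

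All 5 enzymes of glycogen and glycoprotein breakdown rose, against 40.3% of all tested genes. FUCA1, the alpha-L-fucosidase, had 83.9, 81.2 and 79.7 scaled CPM in knockout libraries, against 38.9, 39.7 and 38.4 in wild-type libraries, with no overlap and a log2 fold change of 1.05 (SE 0.036, limma adjusted p = 2.9e-12). MAN2B1, the acid alpha-mannosidase, measured 108, 113 and 118 in knockout and 72.2, 73.6 and 72.5 in wild-type libraries (log2 fold change 0.63). GLB1, the acid beta-galactosidase whose activity is widely used as a stain for senescent cells, had 138, 144 and 143 in knockout and 94.1, 94.7 and 96.1 in wild-type libraries (log2 fold change 0.58). NEU1, the lysosomal sialidase, was at 84.8, 85.6 and 90.4 in knockout and 56.6, 61.7 and 60.6 in wild-type libraries (log2 fold change 0.54). GAA, the acid alpha-glucosidase that digests glycogen, had 172, 192 and 193 in knockout and 162, 168 and 175 in wild-type libraries; its groups overlapped, and its log2 fold change of 0.14 became -0.00091 with equal sums and 0.02 with quantile normalization. The other 4 kept their calls under both scalings.

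Genes of sphingolipid breakdown gave 3 small rises and 4 falls. GM2A, the activator protein that lifts GM2 ganglioside out of the membrane for hydrolysis, fell most. It had 77.3, 74.1 and 77.4 scaled CPM in knockout libraries and 151, 139.8 and 142 in wild-type libraries, a log2 fold change of -0.92 (SE 0.035, limma adjusted p = 1.0e-11). HEXA, the alpha subunit of the hexosaminidase that works with GM2A, was slightly higher, with 224, 224 and 225 in knockout and 197, 203 and 205 in wild-type libraries (log2 fold change 0.15). GLA, the alpha-galactosidase of globotriaosylceramide, had 16.8, 17.9 and 16.8 in knockout and 24.9, 22.4 and 21.2 in wild-type libraries (log2 fold change -0.40). SMPD1, the acid sphingomyelinase, had 69.9, 74.4 and 72.8 in knockout and 91.1, 88.7 and 91.2 in wild-type libraries (log2 fold change -0.32). PSAP, the precursor of the saposins and the second most abundant member, had 1436, 1446 and 1484 in knockout and 1354, 1351 and 1379 in wild-type libraries, and ASAH1, the acid ceramidase, 139.5, 139 and 137 in knockout and 126, 131 and 132 in wild-type libraries. The rises of HEXA, ASAH1 and PSAP were 0.15, 0.10 and 0.10 on the log2 scale. None of the 3 passed with equal sums (adjusted p = 0.63, 0.21 and 0.16), and PSAP was lower after quantile normalization (-0.10).

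PPT1 (chromosome 1, 40071461 to 40097727), the thioesterase that removes palmitate from proteins and is mutated in infantile Batten disease, showed the largest fall of the set. Its level was 60.99, 59.8 and 62.2 scaled CPM in knockout libraries 1 to 3, against 132, 142 and 142 in wild-type libraries 1 to 3. All knockout libraries were far below the lowest wild-type library. The means were 60.99 ± 1.18 in the knockout and 139 ± 5.91 in wild type (SD, n = 3 each). On the log2 scale PPT1 fell by 1.18 (SE 0.036, limma adjusted p = 7.7e-13). PPT1 overlaps exons of CAP1 on the opposite strand. PPT1, TPP1, CLN3, CTSD and CTSF are all genes of the neuronal ceroid lipofuscinoses (Batten disease), and they did not share 1 direction.

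Both proteins that export cholesterol from the lysosome were lower. NPC2, which binds cholesterol in the lumen, had 110.0, 111 and 106 scaled CPM in knockout libraries and 130.2, 138 and 137 in wild-type libraries (log2 fold change -0.31, limma adjusted p = 6.6e-07). NPC1, the membrane protein that takes it over, had 85.97, 84.7 and 83.5 in knockout and 89.6, 97.7 and 94.9 in wild-type libraries (log2 fold change -0.15). LIPA, the acid lipase that frees cholesterol from its esters, moved the other way, with 174, 166 and 170.4 in knockout and 135, 136 and 143 in wild-type libraries (log2 fold change 0.30, limma adjusted p = 5.7e-07). ACP2, the lysosomal acid phosphatase, had 43.5, 42.8 and 44.7 in knockout and 40.3, 37.96 and 37.96 in wild-type libraries, a small rise of 0.17 that did not pass with equal sums (adjusted p = 0.49).

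The members of highest level changed by less than the others. Ranked by the mean over all 6 libraries per kb of annotated exon, the top 10 were CTSD, PSAP, CTSL, CTSZ, CTSB, LAMP1, NPC2, CTSA, LAMP2 and GAA. Their log2 fold changes ran from -0.31 to 0.50 with a median size of 0.09, and none changed by 2-fold, while the other 31 had a median size of 0.54 and held all 7 changes of at least 2-fold. Among all tested genes with a level at or above that of GAA, the median size was 0.51 and 19.8% changed by at least 2-fold, and among those below it the values were 0.47 and 22.9%. These are descriptions, since the cutoff was chosen after the levels were seen, and annotated exon length counts bases that the cells may not use. CTSD and PSAP stood far above the rest in both groups, at 497 and 449 scaled CPM per kb in the knockout and 477 and 420.4 in wild type, followed by CTSL at 91.6 in the knockout and 111 in wild type. The first 5 places were the same in both groups. FUCA1 moved up to place 8 in the knockout, against 18 in wild type, and PPT1 down to place 28, against 14 in wild type. The summed level of the 41 genes was 7268 to 7538 scaled CPM in knockout libraries and 6988 to 7130.5 in wild-type libraries. As a share of each library, which is the scaling to equal sums, the order was the other way round: the set held 0.707% to 0.725% of the signal in knockout libraries and 0.737% to 0.757% in wild-type libraries.

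**Figure D4:**
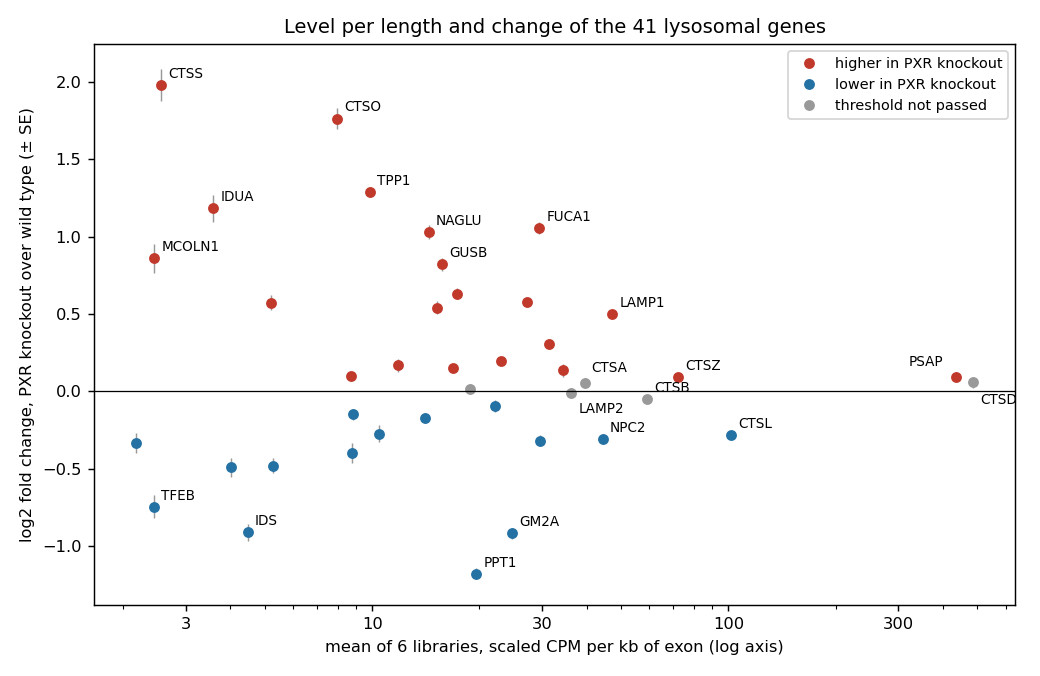
Mean level of the 41 genes over all 6 libraries (x axis, scaled CPM per kb of exon, log scale) against the log2 fold change, knockout over wild type, with its SE (y axis). The 10 genes of highest level lie between -0.31 and 0.50, while CTSS, CTSO and PPT1, with the largest changes, have lower levels.

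Genes that acidify and feed the lysosome were taken from lists of the same pathway. The counts of each list stand beside 40.3% of all tested genes that rose and 39.6% that fell. Of 21 tested V-ATPase subunits, 16 rose and 3 fell, with a median log2 fold change of 0.35 against 0.01 for all tested genes; with equal sums 13 rose and 5 fell. TCIRG1, a membrane subunit, had 100.2, 105 and 106 scaled CPM in knockout libraries and 51.3, 47.4 and 51.2 in wild-type libraries, and ATP6V0E2, encoded on chromosome 7, had 39.1, 42.1 and 41.4 in knockout and 21.4, 19.96 and 19.01 in wild-type libraries. ATP6V1E1, of the stalk of the pump, fell, with 84.3, 81.4 and 86.9 in knockout and 149, 155 and 159 in wild-type libraries; it lies on chromosome 22, with the median of -0.77 given for ARSA. ATP6V1E2, its testis-associated paralogue, fell by 0.49 on the log2 scale.

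Of 16 genes of mannose 6-phosphate tagging and delivery, 6 rose, 6 fell and 4 did not pass (4 and 6 with equal sums). Over all tested genes 40.3% rose and 39.6% fell. Both receptors of the tag fell, and of 2 sortilin-family receptors SORT1 fell and SORL1 rose (log2 fold change 0.54). M6PR, the smaller receptor, had 63.1, 62.5 and 64.3 scaled CPM in knockout libraries and 139.7, 156 and 152 in wild-type libraries (log2 fold change -1.23, limma adjusted p = 1.2e-12). IGF2R, the larger one, had 587, 584 and 603 in knockout and 697, 691 and 692 in wild-type libraries (log2 fold change -0.23). SORT1, a receptor that carries enzymes independently of the tag, had 389, 398 and 393 in knockout and 752, 752 and 766 in wild-type libraries (log2 fold change -0.94). GGA1, an adaptor that loads these receptors, had 20.9, 23.1 and 25.2 in knockout and 65.4, 65.9 and 66.5 in wild-type libraries and lies on chromosome 22. AP1S1, of the AP-1 adaptor and encoded on chromosome 7, rose by 0.64 on the log2 scale. GNPTAB, which starts the tag, had 77.6, 73.1 and 73.2 in knockout and 65.5, 70.9 and 73.7 in wild-type libraries and did not pass (limma adjusted p = 0.069).

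Hydrolases outside the set rose at 15 and fell at 11 of 28 tested genes, with a median of 0.11 (11 and 13 with equal sums). The background for this list and the next is 40.3% of all tested genes higher and 39.6% lower. SMPDL3A, a phosphodiesterase related to SMPD1, had 52.2, 49.1 and 51.1 scaled CPM in knockout libraries and 12.4, 14.1 and 13.9 in wild-type libraries, the largest rise of that list. Of 30 other lysosomal membrane proteins, 17 rose and 6 fell, with a median of 0.19 (13 and 8 with equal sums). LAPTM5, known from leukocytes, rose by 1.93 beside the macrophage and leukocyte levels given above, and TMEM106B of chromosome 7 by 1.03, while SLC36A1, a proton-coupled amino acid transporter, fell by 1.18 and LAPTM4B by 0.58 on the log2 scale.

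Regulators around TFEB gave 14 rises and 16 falls among 33 tested genes of MiT/TFE and lysosomal mTORC1 control. The split was 10 and 18 with equal sums, and the median was -0.09. Again 40.3% of all tested genes rose and 39.6% fell. SESN2, a leucine sensor that restrains mTORC1, had 72.4, 75.8 and 74.8 scaled CPM in knockout libraries and 10.6, 9.29 and 9.58 in wild-type libraries. SESN1, its paralogue, had 160.0, 149 and 154 in knockout and 33.7, 37.2 and 33.1 in wild-type libraries; both are also known p53 targets. GPNMB, a glycoprotein encoded on chromosome 7 that MiT/TFE factors are known to induce, fell most, with 5.41, 4.78 and 4.64 in knockout and 107, 109 and 104 in wild-type libraries (log2 fold change -4.30, limma adjusted p = 2.6e-16). CASTOR1, an arginine sensor encoded on chromosome 22, fell by 3.01 on the log2 scale. Autophagy genes, which deliver cargo to the lysosome, rose at 20 and fell at 10 of 34 tested members, beside the same background. Their median was 0.20, and with equal sums 15 rose and 13 fell. The cargo receptor TAX1BP1, also of chromosome 7, rose by 1.58 and the protease ATG4A by 1.05, while the lipid kinase PIK3C3 fell by 0.65 and the ULK complex member RB1CC1 by 0.44 on the log2 scale.

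**Figure D5:**
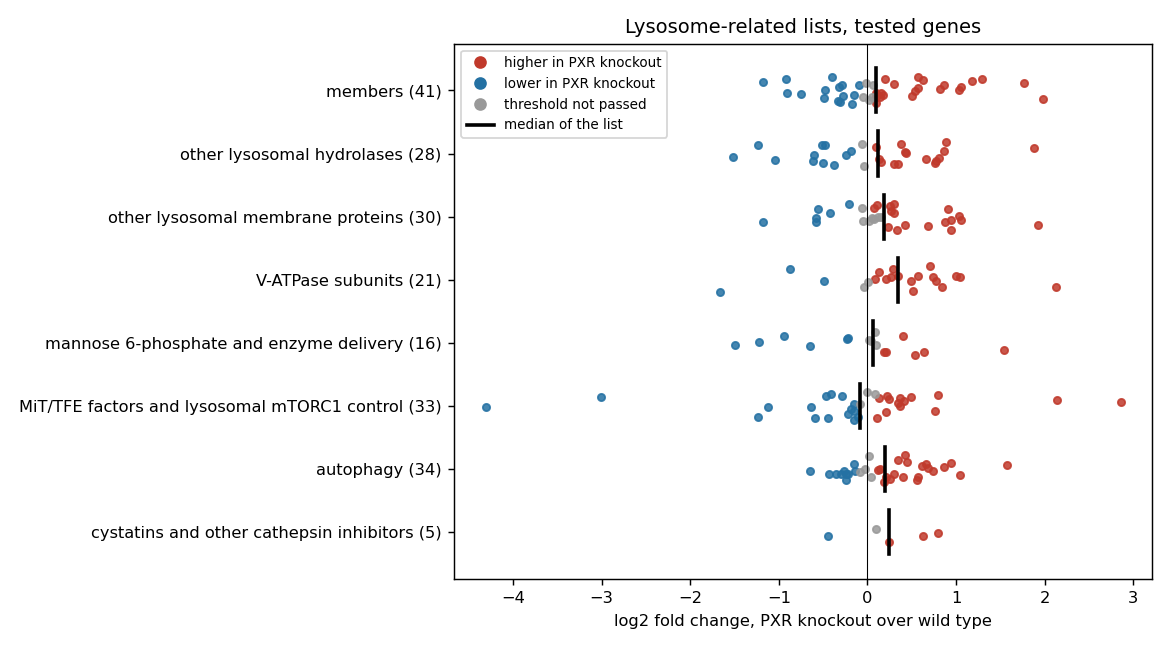
Log2 fold change, knockout over wild type (x axis), of each tested gene in the set of 41 and in 7 other lists (rows), with the median of each list as a bar; vertical scatter has no meaning. Medians run from -0.09 for MiT/TFE and mTORC1 control to 0.35 for V-ATPase subunits, and every list holds genes on both sides of 0.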

How the data were processed

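Total RNA of untreated HepaRG cells was turned into stranded mRNA libraries, per the labels' protocols. Reads went through Bowtie2, Trim Galore and FastQC against hg38, and limma and edgeR are also listed, per the submitters' processing notes. The sources used here give no version, annotation or gene filter, and sample titles begin with RSEM, which estimates counts. The deposited table is named for log2 CPM but holds a linear signal (scaled CPM) that the authors normalized by a factor per library. Its values are steps of a hundredth of a read, which gave the estimated depths; of values under 20 reads, 67.9% to 76.6% were whole within 0.006 of a read, so no count test was used.

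The 14 second pseudoautosomal copies were left out. Genes with scaled CPM above 1 in at least 3 of 6 libraries were tested with limma 3.58.1 in R 4.3.3 on log2(scaled CPM + 0.5), by group, with an empirical Bayes trend, two-sided; this scale understates changes of low genes. Intervals are 95% intervals of that fit, not adjusted. The code was tested on simulated data. Coordinates and exon lengths are from GENCODE 29 (GRCh38). In all, 19 members share exon bases with another annotated gene, and estimated counts divide such reads. Correlations of log2 values were at least 0.995 within a group and at most 0.880 between groups. The members and lists were chosen with earlier results of these data known. Besides the members, the up to 2 largest rises and falls of each list with a mean of at least 5 scaled CPM are named; further genes named were chosen after their values were seen. Alternatives were pseudocounts of 0.1 and 1, no filter, quantile normalization, equal sums, no trend, a replicate block and leaving out each library. Results for some genes of the lists are not reported here.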

Additional observations from a re-analysis of the deposited data

How the results depend on the processing

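Of the 41 genes, 28 kept their direction and their side of the threshold under all 13 alternatives. The other 13 were CTSD, CTSB, CTSF, CTSH, CTSZ, CTSA, GAA, HEXA, ASAH1, PSAP, ACP2, LAMP2 and SCARB2. With equal sums, log2 fold changes turned for CTSD (-0.0806), CTSZ (-0.0441), CTSA (-0.0817), GAA (-0.00091), ASAH1 (-0.0398), PSAP (-0.0420) and SCARB2 (-0.12); with quantile normalization for CTSD (-0.32), CTSA (-0.0585), PSAP (-0.10) and SCARB2 (-0.0803). The median of the set became -0.0441 with equal sums and -0.0585 with quantile normalization, where that of all tested genes was -0.12 and -0.05, and 5 V-ATPase subunits were lower with equal sums in place of 3. Both scalings replace the authors' factor per library. Without a mean-variance trend CTSF and GAA lost their calls (adjusted p = 0.084 and 0.076). Leaving out 1 library at a time gave 20 to 23 members higher and 14 to 15 lower. Replicate numbers did not pair the samples (correlations of same-numbered deviations of -0.020, -0.061 and 0.025), and a replicate block left 21 members higher and 15 lower. Depth limits CTSS most, with 43 estimated reads in 1 wild-type library.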
